A study of Homo sapiens with 2 samples.

Results

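The genes described here are those of the solute carrier families SLC1A, SLC3A, SLC7A, SLC36A, SLC38A and SLC43A, which carry amino acids across membranes. They were taken as every probe set of the array whose only gene symbol began with one of these family names and a number. That rule found 119 probe sets with 42 symbols, among 18244 genes named by 1 symbol on the array. One symbol, SLC7A6OS, names a neighbour of SLC7A6 and no transporter, and was kept apart. The other 118 probe sets read 41 transporter genes, which are all 41 protein-coding genes of the 6 families in RefSeq. Expression was measured in MDA-MB-231, a triple-negative human breast carcinoma line. One array held RNA of a clone in which UGT8, the ceramide galactosyltransferase, was stably knocked down, and 1 array held RNA of the parental cells, labelled control. Both were cultured in DMEM with 5.6 mmol/L glucose and harvested 48 h after passage. How the knockdown was made, and whether parental cells carried a vector, is not given in the sources used here. With 1 clone, its own traits and the knockdown cannot be told apart.

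Cells take up essential amino acids, glutamine and cystine through a small set of these carriers. SLC7A light chains such as LAT1 and xCT reach the cell surface only when joined to a heavy chain, SLC3A2 (CD98) or SLC3A1, and work as exchangers. SLC1A members carry glutamate with sodium or exchange small neutral amino acids, SLC38A members take up glutamine and other neutral amino acids with sodium, SLC36A members move small amino acids with protons, and SLC43A members let large neutral amino acids pass by facilitated diffusion. Some, SLC38A9 and SLC36A1 among them, sit on lysosomes, where amino acid levels are signalled to the mTORC1 kinase. In breast carcinoma these carriers are known for feeding glutamine use, protein synthesis and glutathione synthesis.

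Values are RMA levels on the log2 scale, and each difference is the knockdown value minus the control value, so that a difference of 1 is 2-fold. There is 1 array per group, so no difference could be set against replicate spread, and no test was made. The number of arrays limits the precision. A gene was read by its brightest probe set, and 10439 genes, 25 of the 41 transporter genes among them (61.0%, against 57.2% of all genes), had a mean level at or above the floor of 6.64, the median of all probe sets. The 3 UGT8 probe sets on the knockdown array were at 19.7% to 31.2% of their control signal, and 1 of those readings (4.79) was near the mean of the background probe sets (4.73). Of 8 genes chosen as markers of MDA-MB-231, such as VIM and CD44, all were past the floor on both arrays. The hormone receptor genes ESR1 and PGR were below it, but 5 of 7 epithelial and receptor genes listed as low in this line, ERBB2, CDH1, GATA3, KRT18 and EPCAM, were past it. The leukocyte marker PTPRC read 3.56 and 3.40, under the background mean, while HLA-DRA, ITGB2 and CD14, the other leukocyte markers past the floor, were lower on the knockdown array, with differences from -0.90 to -0.73. The summed linear signal of the 5 leukocyte genes measured was 2964 in control and 1631 in knockdown cells, most of it from HLA-DRA (11.26 and 10.36). CD3E, below the floor, read 5.67 and 5.64. The summed signal of 6 fibroblast genes was 552 and 343, with LUM, the 1 past the floor, going from 8.04 to 6.69. Below the floor, PDGFRB and DCN differed by -0.75 and -0.49, and COL1A1, COL1A2 and THY1 by 0.01 to 0.11. For 5 endothelial genes the summed signal was 614 and 392, with PECAM1 going from 8.46 to 7.37 and KDR at -0.36. CDH5 and TEK lay under the background mean on both arrays. For 4 adipocyte genes the summed signal was 238 and 234. The part of these markers in the results was not tested. For ACTB, an RNA-quality control, the 3' probe set exceeded the 5' one by 0.49 in control and by 0.90 in knockdown cells. For GAPDH, another such control, it did so by 0.18 and 0.19. Spiked-in hybridisation controls read a median of 0.51 higher in the knockdown sample, and poly-A controls 0.07 higher, so directions below hold on the deposited scale, relative to a typical gene (median difference 0.03, or -0.48 after centring on the hybridisation controls).

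Of the 25 transporter genes past the floor, 5 were at least 1.5-fold lower on the knockdown array, where 6.74% of all genes were. They were SLC1A7, SLC1A3 and SLC1A4 of the SLC1A family and SLC38A2 and SLC38A6 of the SLC38A family. One, the light chain SLC7A5, was at least 1.5-fold higher, where 4.96% of all genes were. The median difference of the 25 genes was -0.01, with 10 above 0, 14 below 0 (56%, against 45.8% of all genes) and SLC43A1 at exactly 0. SLC1A7, SLC1A3 and SLC1A4 were the 3 genes at least 2-fold lower, which 1.54% of all genes were, and none was 2-fold higher, which 0.738% of all genes were. The count of 1 higher and 5 lower became 0 and 12 after centring on the hybridisation controls, and 0 and 6 after centring on the poly-A controls. Over all genes the same 3 scales gave 518 higher and 704 lower, 50 and 3868, and 360 and 896. The counts are small and no test compared them with the background.

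**Figure D1:**
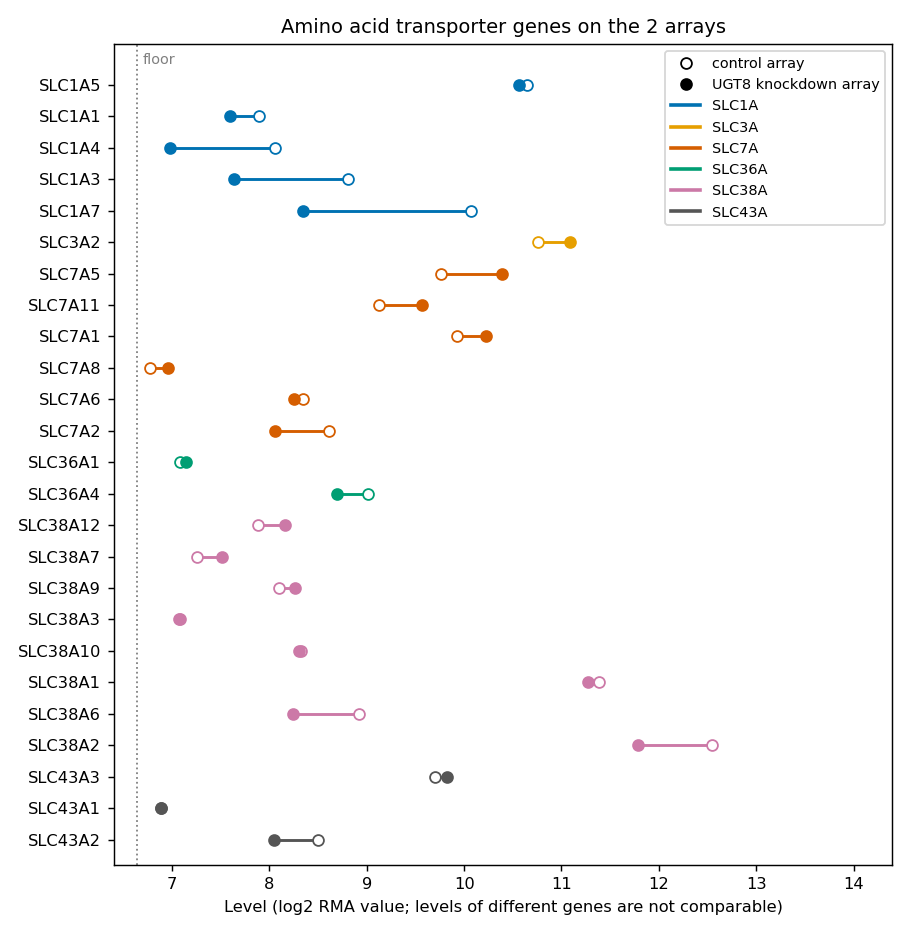
Level of each transporter gene past the floor on the control array (open circle) and on the UGT8 knockdown array (filled circle), in log2 RMA units, coloured by family. All 5 SLC1A genes lie lower on the knockdown array, SLC1A7 by the widest gap (10.07 to 8.35), while SLC7A5, SLC7A11, SLC7A1 and SLC3A2 lie higher on this scale; after centring on the hybridisation controls SLC7A5 stays above 0 and the other 3 turn below it.

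All 5 SLC1A genes past the floor read lower on the knockdown array, where 45.8% of all genes did, and also under each centring. Their median difference of -1.07 is the value of the brightest SLC1A4 probe set, and it was -0.48 when each gene was averaged over its probe sets past the floor, -0.26 over all its probe sets (3 genes past the floor) and -0.30 for the 7 genes of the family with no floor. SLC1A7, the glutamate transporter EAAT5 that is best known from retina, read 10.07 in control and 8.35 in knockdown cells. This is a difference of -1.72, or 30.4% of the control signal. Only 19 of the 10439 genes had a lower difference. A second probe set of SLC1A7 read 8.80 and 7.04 (-1.76), whereas the remaining 2 read 4.45 to 4.52 on both arrays, under the background mean.

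SLC1A3, the glutamate and aspartate transporter EAAT1, read 8.80 in control and 7.63 in knockdown cells. Its difference of -1.17 corresponds to 44.4% of the control signal, and 95 genes had a lower one. Its 3 probe sets past the floor differed by -1.17, -0.81 and -0.68, a mean of -0.89 ± 0.25 (SD across probe sets, not replicates, as in every such value below). The last 2 read at most 6.48 on the knockdown array, under the floor, which their means passed through the control array. The other 2 probe sets, below the floor, differed by -0.66 and -0.08.

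SLC1A4, the alanine, serine and cysteine exchanger ASCT1, read 8.06 in control and 6.98 in knockdown cells, which is -1.07 (47.5% of control). The size depended on the probe set. Its other 2 past the floor went from 7.10 to 6.96 (-0.14) and from 7.09 to 6.85 (-0.24), and 3 dimmer ones differed by -1.01, -0.67 and -0.50. All 6 were lower on the knockdown array, and the mean over the 3 past the floor was -0.48 ± 0.51 (SD), under 1.5-fold.

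The other SLC1A genes differed less. SLC1A5, the glutamine exchanger ASCT2, read 10.64 and 10.56, and its 3 probe sets lay between -0.11 and -0.08. SLC1A1, the glutamate and cysteine transporter EAAT3, went from 7.89 to 7.59 (-0.30), with its second probe set at -0.22. The glial transporter gene SLC1A2 and SLC1A6 were below the floor. The 3 SLC1A4 probe sets past the floor were at 47.5%, 91.0% and 84.5% of the control signal, and those of SLC1A5, the other neutral amino acid exchanger, at 92.8% to 94.4%.

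Promoter sequence is given for SLC1A7, SLC1A3 and SLC1A4 because they were the 3 genes at least 2-fold lower, in each case from a start whose window held a match to a searched motif. RefSeq windows (GRCh38.p14) from 250 bases before to 50 after each start were available for 21 of the 25 genes, with 40 windows in all, and SLC38A3, SLC43A3, SLC7A11 and SLC7A2 had no entry. The motifs were TGATGNAA, the core of the C/EBP-ATF response element, TGACNNNGC, the core of the antioxidant response element, and CACGTG, the E-box of MYC and TFE factors, on both strands. The 250 bases upstream of the start follow, 5′ to 3′ on the gene's strand, with matches in capitals. No 2 matches overlapped in these stretches.
SLC1A7 (chr1:53142639-53142888, minus strand): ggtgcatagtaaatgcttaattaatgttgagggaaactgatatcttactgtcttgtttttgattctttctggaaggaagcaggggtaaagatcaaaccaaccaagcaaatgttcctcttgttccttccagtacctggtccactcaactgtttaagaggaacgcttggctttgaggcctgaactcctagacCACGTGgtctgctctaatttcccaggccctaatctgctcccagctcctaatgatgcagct
SLC1A3 (chr5:36596338-36596587, plus strand): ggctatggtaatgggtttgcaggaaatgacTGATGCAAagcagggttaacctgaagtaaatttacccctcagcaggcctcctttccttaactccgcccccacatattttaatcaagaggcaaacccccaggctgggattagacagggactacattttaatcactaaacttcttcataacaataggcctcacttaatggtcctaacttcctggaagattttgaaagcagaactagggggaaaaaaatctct
SLC1A4 (chr2:64989149-64989398, plus strand): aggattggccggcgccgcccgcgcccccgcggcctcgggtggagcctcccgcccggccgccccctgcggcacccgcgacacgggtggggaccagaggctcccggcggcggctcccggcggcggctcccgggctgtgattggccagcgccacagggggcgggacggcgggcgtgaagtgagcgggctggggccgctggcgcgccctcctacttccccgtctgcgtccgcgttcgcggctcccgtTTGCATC
The SLC1A7 stretch held CACGTG at -60 to -55. That of SLC1A3, the first of its 3 starts, held TGATGCAA at -220 to -213, and the window of its second start, not shown, held TGACAAAGC at -196 to -188. That of SLC1A4, the second of its 2 starts, ended in TTGCATCA on the reverse strand, at -7 to 1, of which the last base lies past the start and is not shown. Genes that differed little held matches too. SLC1A5, at a difference of -0.08, held TGATGCAA at -97 to -90 of 1 window and, in another, GCGAGGTCA (TGACNNNGC reversed) at -111 to -103 and CACGTG at -50 to -45. TGATGNAA was found in 6 of the 40 windows (15%) and in 3.62% of all 35116 windows, CACGTG in 7 (17.5%) and in 7.26%, and TGACNNNGC in 6 (15%) and in 13.3%. A match is a description of letters and no evidence of binding, windows of 1 gene can overlap, and these shares were not tested.

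The heavy chain SLC3A2 and its light chains SLC7A5 and SLC7A11 read higher on the knockdown array, on the deposited scale, whereas centring on the hybridisation controls left SLC7A5 at 0.11 and put SLC3A2 at -0.18 and SLC7A11 at -0.08. SLC7A5, the leucine and tryptophan exchanger LAT1, read 9.76 in control and 10.39 in knockdown cells. This is a difference of 0.62 (1.54-fold), and 419 genes had a higher one. Its second probe set, whose name marks possible cross-hybridisation, went from 7.19 to 7.47 (0.28). Averaged over both, SLC7A5 differed by 0.45 ± 0.24 (SD), short of 1.5-fold, and it also fell short after centring on the poly-A controls (0.55). SLC7A5 has pseudogene copies, and which copy each probe set reads is uncertain.

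The upstream stretch of SLC7A5 is shown because it is the only member at least 1.5-fold higher and its window held matches to 2 of the motifs.
SLC7A5 (chr16:87869508-87869757, minus strand): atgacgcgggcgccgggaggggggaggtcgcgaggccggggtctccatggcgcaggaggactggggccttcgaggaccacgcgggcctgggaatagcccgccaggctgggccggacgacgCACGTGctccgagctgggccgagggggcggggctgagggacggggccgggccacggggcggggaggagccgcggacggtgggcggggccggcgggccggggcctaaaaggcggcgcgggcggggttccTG
CACGTG lies at -130 to -125. TGACGCAGC, a match to the antioxidant element core, runs from -2 to 7, so that only its first 2 bases stand in capitals at the end of the stretch. SLC3A2 held TGACTCAGC at -37 to -29 and, reversed, TTACATCA at 38 to 45 of 1 of its 3 windows.

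SLC7A11, the cystine and glutamate exchanger xCT that supplies cysteine for glutathione, read 9.13 in control and 9.56 in knockdown cells. Its difference was 0.43 (1.35-fold), and its 3 probe sets lay between 0.42 and 0.54 (mean 0.46 ± 0.06, SD). SLC3A2 read 10.75 and 11.08, a difference of 0.33 (1.26-fold). All 7 SLC3A2 probe sets were higher, between 0.23 and 0.34 (mean 0.30 ± 0.05, SD). Neither gene reached 1.5-fold. The other heavy chain, SLC3A1 (rBAT), was below the floor at 4.78 and 4.86, near the background mean, and its light chain SLC7A9 was below the floor too.

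The other light chains differed less. SLC7A8 (LAT2) went from 6.78 to 6.96 (0.18), close to the floor, and its 3 dimmer probe sets differed by -0.07, 0.04 and -0.27. SLC7A6, the arginine and glutamine exchanger y+LAT2, went from 8.34 to 8.26 (-0.09), and its second probe set differed by 0.08. Its remaining, dim probe set, below the floor on mean level, went from 6.10 to 6.74 (0.64). SLC7A6OS, which encodes a factor for nuclear import of RNA polymerase II and overlaps the SLC7A6 locus by 3786 bases on chromosome 16, went from 6.90 to 7.38 (0.48). SLC7A7, SLC7A10 and SLC7A13 were below the floor. The 4 light chains past the floor had a median difference of 0.31, with 3 above 0, or -0.21 after centring on the hybridisation controls.

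The 2 cationic amino acid transporter genes past the floor pointed in opposite directions on the deposited scale, and both were below 0 after centring on the hybridisation controls. SLC7A1 (CAT1), the widely expressed arginine and lysine carrier, read 9.93 in control and 10.23 in knockdown cells (0.30, 1.23-fold). All 4 of its probe sets were higher, the 3 past the floor by 0.30 to 0.44. SLC7A2 (CAT2), which has inducible and low-affinity forms, read 8.61 and 8.06 (-0.55, 68.3% of control). Its 3 probe sets past the floor differed by -0.74, -0.55 and -0.48 (mean -0.59 ± 0.13, SD), and its brightest one lay just short of 1.5-fold. The probe set at -0.74 read 6.41 on the knockdown array, under the floor, and over all 4 probe sets the mean was -0.43. SLC7A3, SLC7A4 and the lysosomal SLC7A14 were below the floor.

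**Figure D2:**
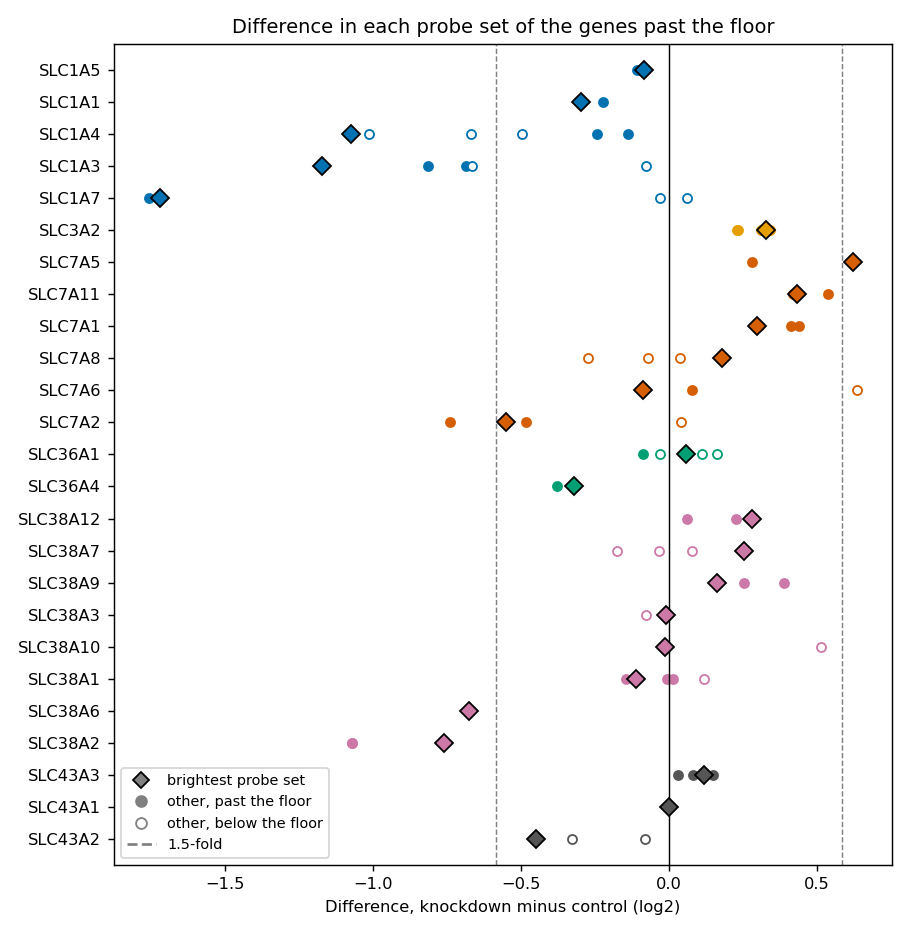
Difference between the knockdown and control arrays (log2) in each probe set of the transporter genes past the floor, with the brightest probe set as a diamond, others past the floor as filled circles and those below it as open circles; dashed lines mark 1.5-fold. Probe sets of SLC3A2, SLC7A11 and SLC1A5 lie close together, while those of SLC1A4 run from -1.07 to -0.14 and the 2 dim ones of SLC1A7 lie near 0.

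Of the 8 SLC38A genes past the floor, 2 passed 1.5-fold, both lower, where 6.74% of all genes were. The family median was -0.01, or -0.52 after centring on the hybridisation controls. SLC38A2 (SNAT2), a sodium-coupled carrier of glutamine and alanine whose transcript is induced when amino acids are short, read 12.54 in control and 11.78 in knockdown cells. Its difference was -0.76 (59.1% of control). The other 2 probe sets went from 10.27 to 9.20 and from 10.00 to 8.93 (both -1.07), so that all 3 passed 1.5-fold in the same direction. Its window held none of the 3 motifs. SLC38A6, a carrier that is less well described, went from 8.92 to 8.24 (-0.67, 62.6% of control) in its 1 probe set, and its window held none of them either.

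SLC38A1 (SNAT1), the related glutamine carrier, read 11.39 and 11.27 (-0.11), and its 4 probe sets past the floor lay between -0.15 and 0.02. Every SLC38A2 probe set thus had a lower difference than every SLC38A1 probe set past the floor. How often other gene pairs of the array separate in this way was not counted, and probe sets are not replicates. SLC38A9, the arginine sensor of the lysosome, went from 8.10 to 8.26 (0.16), with its 3 probe sets between 0.16 and 0.39. SLC38A7, a lysosomal glutamine and asparagine carrier, went from 7.25 to 7.51 (0.25), and its 3 dimmer probe sets lay between -0.18 and 0.08. SLC38A12, known earlier as TMEM104, went from 7.88 to 8.16 (0.28), with all 3 probe sets higher. These 3 genes were below 0 once centred on the hybridisation controls. SLC38A3 (SNAT3) read 7.08 and 7.07. SLC38A10 read 8.32 and 8.31, although its second probe set, below the floor, went from 5.55 to 6.06 (0.52).

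Proton-coupled and facilitative carriers differed by less than 1.5-fold. SLC36A4 (PAT4), a carrier of proline and tryptophan, went from 9.01 to 8.69 (-0.32), and its second probe set differed by -0.38. SLC36A1 (PAT1), the lysosomal exporter of small amino acids, read 7.09 and 7.15 (0.06), and its 3 probe sets past the floor lay between -0.09 and 0.06. SLC43A2 (LAT4), which carries large neutral amino acids, went from 8.50 to 8.05 (-0.45, 73.3% of control), with 2 dimmer probe sets at -0.33 and -0.08. SLC43A3, an equilibrative carrier of purine bases despite its family name, went from 9.70 to 9.82 (0.12), and its 4 probe sets lay between 0.03 and 0.15. SLC43A1 (LAT3) read 6.89 on both arrays, an identical value, as 83 of the 10439 genes had. SLC43A3 and SLC36A1 turned below 0 after centring on the hybridisation controls, and SLC36A1 also after centring on the poly-A controls.

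The 16 transporter genes below the floor had mean levels between 3.22 and 6.12, and 6 of them were at or under the background mean. Their differences ran from -0.25 (SLC38A11) to 0.18 (SLC38A8). None passed 1.5-fold, and none read above the floor on either array. Near the background mean a difference was not detectable.

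For 18 transporter genes, 2 or more probe sets were past the floor. In 15 these all lay on the same side of 0, while SLC36A1, SLC38A1 and SLC7A6 were split. The share of all genes with 2 or more probe sets past the floor that agree in this way was not counted. The median SD of the difference over probe sets of 1 gene was 0.08, the same as over the 6067 such genes of the array. SLC1A4 had the largest (0.51). Probe sets of 1 gene can share probes, so they are not independent readings, and their SD is no replicate error.

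**Figure D3:**
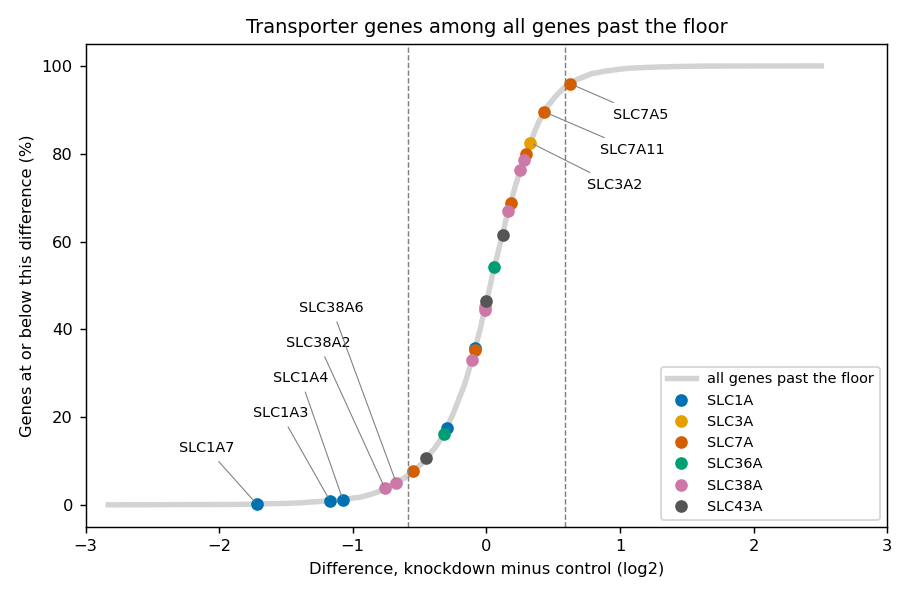
Share of the 10439 genes past the floor at or below each difference (grey curve, in percent), with the 25 transporter genes as points coloured by family and dashed lines at 1.5-fold. SLC1A7, SLC1A3 and SLC1A4 lie at the low end of the curve, with 19, 95 and 121 genes lower, and SLC7A5 near the high end, with 419 genes higher.

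Other solute carriers give a reference for these counts. Of 148 other genes with SLC symbols past the floor, 15 (10.1%) were at least 1.5-fold lower and 4 (2.70%) higher, against 5 (20%) and 1 (4%) of the 25 described here. The medians were 0.00 and -0.01. These shares rest on few genes and were not tested against each other.

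Carriers of amino acids and peptides also exist outside these families, in mitochondria among other places. Of 18 past the floor, 2 were at least 1.5-fold higher and none lower (4.96% and 6.74% of all genes), with a median of 0.02. These were the mitochondrial carriers SLC25A12 (7.57 to 8.24, 0.67), which exchanges aspartate for glutamate, and SLC25A22 (8.67 to 9.33, 0.66), which imports glutamate. The taurine carrier SLC6A6 differed by -0.31 and the lysosomal cystine exporter CTNS by 0.33. After centring on the hybridisation controls that median was -0.50.

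Genes of the amino acid response, in which the transcription factor ATF4 acts when amino acids are short, had a median near 0. The list also held ATF4 itself and the kinase genes EIF2AK3 and EIF2AK4. Of 24 past the floor, 11 were above and 13 below 0 (median -0.07), where 45.8% of all genes were below 0. None was 1.5-fold higher, where 4.96% of all genes were. The lipoprotein receptor gene VLDLR was the only one at least 1.5-fold lower (8.99 to 8.29, -0.70), where 6.74% of all genes were. NUPR1 fell short of that cut by a rounding margin (-0.5846, with the cut at 0.5850). EIF2AK3 differed by -0.55 and ATF5 by 0.54. ATF4 itself read 12.12 and 12.15, the asparagine synthetase gene ASNS differed by -0.23 and the glutathione-degrading enzyme gene CHAC1 by 0.28. The list of lysosomal amino acid sensing and mTORC1 genes had 29 past the floor (median 0.06, 18 above 0). Of all 10439 genes, 5580 were above 0. NPRL3, a subunit of the GATOR1 complex that restrains mTORC1, was the only one past 1.5-fold, from 8.03 to 9.03. Of all genes, 4.96% were at least 1.5-fold higher and 6.74% lower. The mTORC1 subunit RPTOR differed by 0.57, just short of 1.5-fold, and MTOR by 0.10. Centred on the hybridisation controls, these 2 medians were -0.58 and -0.46.

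**Figure D4:**
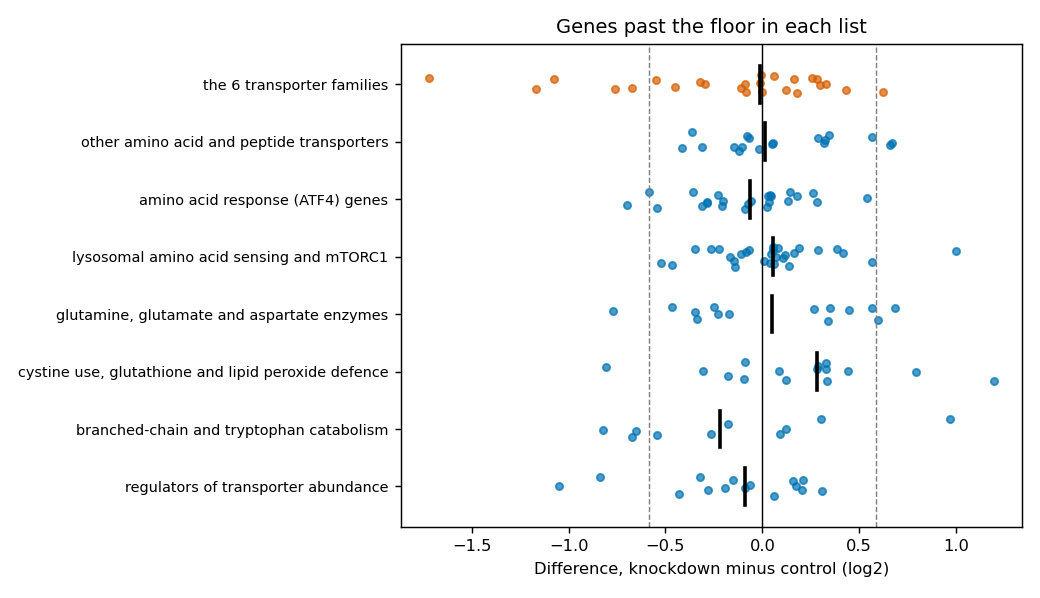
Difference (log2, knockdown minus control) of each gene past the floor in the 6 transporter families (orange) and in 7 lists of related genes (blue), with the median as a black bar and dashed lines at 1.5-fold; points are spread vertically for visibility. The medians run from -0.22 (branched-chain and tryptophan catabolism) to 0.28 (cystine use and peroxide defence) on the deposited scale, and all 7 list medians are below 0 after centring on the hybridisation controls.

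The list for cystine use, glutathione and lipid peroxide defence had a median of 0.28 over 15 genes, 10 above and 5 below 0. Of all 10439 genes, 5580 were above 0. At 1.5-fold, 2 of the list were higher and 1 lower, against 4.96% and 6.74% of all genes. After centring on the hybridisation controls the median was -0.23. Not all of these genes depend on SLC7A11. CHAC2, which degrades glutathione slowly, went from 7.47 to 8.67 (1.20), and the haem oxygenase gene HMOX1 from 7.63 to 8.43 (0.79). ACSL4, which places polyunsaturated fatty acids into phospholipids, went from 11.28 to 10.48 (-0.81). The glutathione synthesis genes GCLC (-0.09), GCLM (0.09) and GSS (0.33) and the lipid peroxidase gene GPX4 (-0.30) did not reach 1.5-fold.

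Enzymes of glutamine, glutamate and aspartate metabolism split. Over 14 genes past the floor the median was 0.05, with 7 above and 7 below 0. At 1.5-fold, 2 were higher and 1 lower, against 4.96% and 6.74% of all genes. PPAT, which starts purine synthesis with glutamine, went from 8.86 to 9.54 (0.68), and the mitochondrial aspartate aminotransferase gene GOT2 from 10.12 to 10.72 (0.59). The glutamine synthetase gene GLUL went from 11.75 to 10.99 (-0.77). Of 10 genes of branched-chain, tryptophan and arginine catabolism (median -0.22), 3 were at least 1.5-fold lower and 1 higher, against 6.74% and 4.96% of all genes. KYNU (8.12 to 7.29, -0.82) and IDO1 (6.99 to 6.31, -0.67, under the floor on the knockdown array) act on tryptophan and its product kynurenine, and BCAT1 (11.13 to 10.48, -0.65) is the cytosolic branched-chain aminotransferase. ODC1, the ornithine decarboxylase of polyamine synthesis, was higher (10.06 to 11.03, 0.97).

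Of 15 regulators of these carriers past the floor, 2 passed 1.5-fold, both lower, where 6.74% of all genes were (median -0.09). EPAS1 (HIF-2 alpha) went from 11.43 to 10.38 (-1.05), and BACH1, a repressor of antioxidant genes, from 10.70 to 9.86 (-0.84). The NRF2 gene NFE2L2 differed by -0.32, MYC by 0.17 and NEDD4L, a ubiquitin ligase of membrane carriers, by 0.31. RNA levels do not show whether carrier protein or transport differed.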

How the data were processed

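The 2 arrays of the study were analysed, 1 per group, grouped by the genotype label. The authors deposited log2 values made by RMA, as named in the submitters' processing notes. Which program and build lay behind it is not given in the sources used here, and no scanner file was analysed. RMA normalizes between arrays, which removes a shift common to most transcripts. Probe sets were named through the platform annotation, with Entrez IDs checked against RefSeq (GRCh38.p14), where 18192 of 18244 symbols were found. Of 49495 probe sets, 102 were controls, 1333 had several symbols and 2782 none in the table used, and none of these was used for genes. The brightest probe set by mean of both arrays stood for a gene, which was counted past a floor of 6.64 at a threshold of 1.5-fold. No test was run. Every transporter past the floor was named, as were up to 4 list genes past 1.5-fold with the largest difference. Other list genes were named after their values were seen. The members and lists were chosen with earlier results of these data known. Counting was tested on simulated data. Alternatives covered the floor, the reading of a gene, cross-hybridising probe sets, centring and the threshold. Analysis used Python 3.11.15, pandas 2.3.3 and statsmodels 0.14.6 (loess, fraction 0.3).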

Additional observations from a re-analysis of the deposited data

How the results depend on the processing

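No paired analysis was possible because each group holds 1 array. With no replicates, a difference or median was taken as moved when it shifted by more than the median SD between probe sets of 1 gene (0.08), and a count when it changed by over 1.5 times. Signal over background limits the 16 dim transporter genes. No difference of at least 1.5-fold changed sign under any alternative run. Centring on the controls could not have changed one, as the largest shift (0.51) is smaller than the cut (0.58 in log2). Smaller differences did change sign, those of SLC3A2, SLC7A11 and SLC7A1 among them. Of 237 further values, of 26 named genes each under the alternatives that gave one, 192 stayed within that SD and 45 moved. Many of the 192 could not move. Another floor leaves a gene's own difference unchanged, and centring on the median of all probe sets shifts every gene by the same amount, less than that SD. The 192 is therefore no measure of robustness. Why the values moved was not tested, except that other floors and averaging change which genes are counted.

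The count of 1 transporter gene at least 1.5-fold higher was 0 when a gene was averaged over all its probe sets or those past the floor, 0 after centring on either set of spike-in controls, 0 at 2-fold and 2 at 1.3-fold, where 13.8% of all genes were higher. The count of 5 lower became 2 under a 75th-percentile floor, 3 after averaging over all probe sets (18 genes past the floor), 12 after centring on the hybridisation controls and 3 at 2-fold. Averaging over the probe sets past the floor left it at 5, but with SLC7A2 (-0.59) in place of SLC1A4 (-0.48).

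After centring on the hybridisation controls the median over all transporter genes was -0.53, that of SLC1A -1.59, SLC3A -0.18, SLC7A -0.27, SLC36A -0.64, SLC38A -0.52 and SLC43A -0.51. The list medians were then -0.50 (other carriers), -0.58 (ATF4 genes), -0.46 (mTORC1), -0.46 (glutamine enzymes), -0.23 (cystine use), -0.73 (branched-chain and tryptophan) and -0.60 (regulators).

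With no floor the median was -0.30 for SLC1A, 0.20 for SLC3A, -0.070 for SLC7A, 0.0094 for SLC36A and -0.11 for branched-chain and tryptophan catabolism. A 25th-percentile floor gave -0.69, 0.20, 0.072 and 0.0094 for those 4 families. A 75th-percentile floor gave -0.90 for SLC1A, 0.43 for SLC7A, -0.32 for SLC36A, -0.44 for SLC38A, 0.12 for SLC43A, 0.30 for glutamine enzymes, 0.10 for cystine use and -0.028 for branched-chain and tryptophan catabolism. Averaged over all probe sets it was -0.26 for SLC1A, 0.36 for SLC7A, -0.35 for SLC36A, 0.082 for SLC38A, 0.026 for ATF4 genes and 0.15 for cystine use. Over the probe sets past the floor it was -0.48 for SLC1A and 0.15 for cystine use. Without cross-hybridising probe sets it was -0.23 for SLC36A, -0.069 for other carriers, -0.17 for glutamine enzymes and -0.18 for regulators. Centring on the median or by loess moved none of these medians and neither count.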
